A study of Mus musculus with 18 samples.

Results

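The 5′ region of Rn45s, the mouse ribosomal RNA gene listed on chromosome 17, was examined in RibOxi-seq libraries of 4T1 cells. RibOxi-seq fragments RNA and oxidizes it, so that mainly fragments whose last nucleotide carries a 2′-O-methyl group keep a 3′ end to which a linker can be ligated. Each count is therefore a read 3′ end at 1 genomic base. The region was chosen by coordinates, chr17:39842997-39847003 on the plus strand of mm10, and its 4007 bases are numbered here from 1 at the first base. It held 2385 of the 1825851 listed positions, and 2041 of them had at least 1 count. The other 1622 bases of the region have no row and were taken as 0 counts. It held 438929 of the 4857967 counts of the table.

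4T1 is a mouse mammary carcinoma line, and all the cells compared here had been transduced with lentiviral mCherry and Renilla luciferase and kept in puromycin. There were 3 genotypes with 3 biologic replicates each: the parental 4T1 WT, and Snord67KO-1 and Snord67KO-2, each a clone grown from a single cell after CRISPR/Cas9 cutting with paired guides. Snord67 is a box C/D snoRNA in the host gene Ckap5. Each knockout genotype was 1 single-cell clone, whereas 4T1 WT was the parental line. The knockout therefore cannot be told apart from the cloning or from other differences between clones.

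The 3′ ends were read from poly(A)-enriched RNA, in which ribosomal RNA is what the enrichment left behind. A library held 212463 to 737219 counts, and Rn45s took 19.3% to 32.4% of them. Snord67 had 1 count over the 9 libraries, in Snord67KO-1 replicate 1, and 0 in every 4T1 WT library, so it could not check the genotype labels. Of the 5 carcinoma markers (Krt8, Krt18, Krt14, Epcam and Cdh1), all were found in the 9 libraries together, with a summed level of 283 to 538 CPM (counts per 1000000 counts of the library) in 4T1 WT, 851 to 933 in Snord67KO-1 and 594 to 692 in Snord67KO-2. Krt8 and Krt18, with 843 and 1688 counts, made up most of the sum, and the markers did not all follow it. Cdh1 had 90, 70 and 49 raw counts in 4T1 WT against 37, 26 and 37 in Snord67KO-1. The 8 markers of blood, endothelial, muscle and stromal cells summed to 4.71 to 104 CPM. In 4T1 WT replicate 2, positions marked mispriming in the table took 17.8% of the library, against 1.38% to 7.22% in the other 8 libraries, so results are given with and without it where it changed them.

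The ribosomal RNA precursor is transcribed by RNA polymerase I as 1 long transcript. It begins with the 5′ external transcribed spacer, followed by 18S, and the spacer is cut and degraded while the small subunit forms around 18S. The U3 snoRNA and the small subunit processome bind the spacer and are needed for those cuts. Mature 18S carries many 2′-O-methyl groups that box C/D snoRNAs guide, whereas the spacer does not enter the ribosome.

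The coordinates did not hold the spacer alone. The annotated rRNA CT010467.1 (39846353 to 39848827) is listed on the minus strand. Its lower limit is 39846353, and the plus-strand sequence from that base is the start of 18S. The RefSeq entry for 18S here, Rn18s-rs5 (39846354 to 39848202), is listed as a pseudogene. Positions 1 to 3356 (39842997 to 39846352) are accordingly called the external spacer. Positions 3357 to 4007 (39846353 to 39847003) are called the 18S segment, the first 651 bases of 18S. This division was made after the data were examined. The GENCODE lincRNA Gm26917 (39843013 to 39846341) lies within the spacer. Gm42418 (39846958 to 39848788) begins inside the 18S segment.

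The sequences at the main 3′ ends are given below in genomic letters, 5′ to 3′ on the plus strand of GRCm38. The capital is the base at which the counted reads ended, with the 19 bases before it and the 10 after it. The first line is the start of 18S, in which the capital is base 27 of 18S. The next 6 are the highest positions of the whole region, and the last 3 are in the external spacer.
18S start (chr17:39846353-39846382): tacctggttgatcctgccagtagcatAtgc
position 3939 (chr17:39846916-39846945): tggaatgagtccactttaaAtcctttaacg
position 3964 (chr17:39846941-39846970): taacgaggatccattggagGgcaagtctgg
position 3530 (chr17:39846507-39846536): ggtaattctagagctaataCatgcccacgg
position 3791 (chr17:39846768-39846797): cggggaatcagggttcgatTccggagaggg
position 3825 (chr17:39846802-39846831): tgagaaacggctaccacatCcaaggaaggc
position 3831 (chr17:39846808-39846837): acggctaccacatccaaggAaggcagcagg
position 269 (chr17:39843246-39843275): gccctcacgtgtttcacttTggtcgtgtct
position 404 (chr17:39843381-39843410): ggagcgttccaggtttgtcTcctaggtgcc
position 764 (chr17:39843741-39843770): gcccttggaagagaaccttCctgttgccgc

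Nearly all 3′ ends of the region lay in 18S. The 18S segment held 431557 counts, 98.3% of the region. The external spacer, 83.8% of the bases, held 7372 counts, or 1.68%. In the 18S segment 607 positions had a count, 93.2% of its bases, and 234 of them had a count in every library. In the spacer 1434 positions had a count, 42.7% of its bases. Of these, 748 had a single count over all 9 libraries, and 1 position, position 269, had a count in every library.

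**Figure D1:**
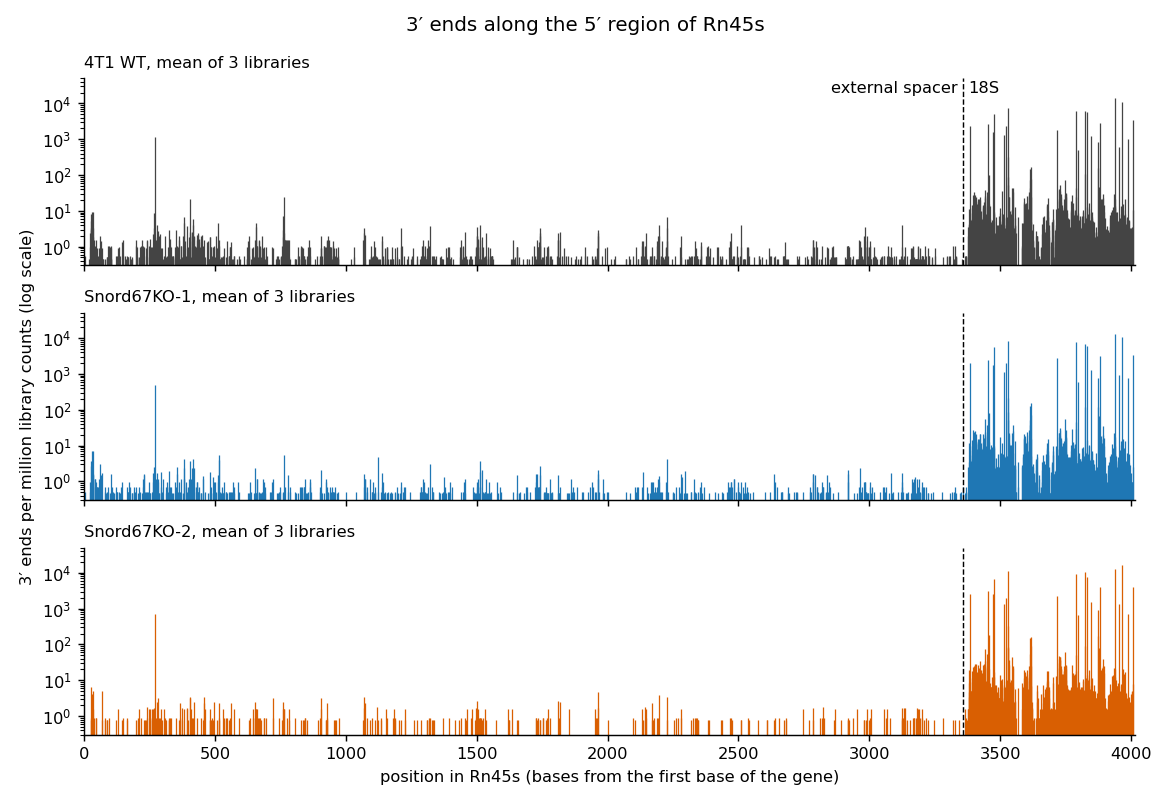
Mean CPM of 3′ ends (log scale) at each position of the 5′ region of Rn45s, with 1 panel for each genotype (3 libraries each) and a dashed line at the start of 18S. The spacer shows scattered single positions of low level and 1 tall line at position 269, and the tall lines of the region stand in 18S.

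The pile-ups in 18S were few and sharp. There were 21 positions with a mean of at least 0.5% of the region's counts, and they held 93.4% of the counts. Of these, 20 were in the 18S segment and 1 in the spacer. The 10 highest, all in 18S, held 77.1% on average, and 5 positions were enough to reach a mean of 50%. Each library had 9 or 10 of its own 10 highest positions among these 10. Across the 620 listed positions of the 18S segment, log10 counts plus 1 had correlations of 0.856 to 0.911 between libraries of a genotype (9 pairs) and 0.861 to 0.913 between genotypes (27 pairs), as a description across positions that share libraries and depth.

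Position 3939, base 583 of 18S and an A, was the highest, with a mean of 14.6% of the region. Its share was 17.2% ± 7.70 (SD, n = 3) in 4T1 WT against 14.7% ± 2.49 in Snord67KO-1 and 12.0% ± 0.944 in Snord67KO-2. Its counts were 6761, 11471 and 9719 in 4T1 WT replicates 1 to 3, 6486, 7085 and 10160 in Snord67KO-1, and 3221, 4611 and 4698 in Snord67KO-2. The share of 4T1 WT replicate 2, 25.8%, was the highest of the 9. The other 4T1 WT libraries, at 11% and 14.9%, overlapped the ranges of both clones.

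Position 3964, base 608 of 18S and a G, was second with a mean of 13.2%. It held 8231, 3664 and 9405 counts in 4T1 WT compared with 8149, 4907 and 7657 in Snord67KO-1, and 3758, 6486 and 5546 in Snord67KO-2. The ranges of all 3 genotypes overlapped as shares of the region. One of these 2 positions was the highest in each library, position 3939 in 4 libraries and position 3964 in 5.

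Position 3530, C174 of 18S, followed with 9.48%. The next were position 3791 (base 435, 8.24%), position 3825 (base 469, 8.16%), position 3831 (base 475, 6.80%), position 3477 (U121, 6.10%), position 4007 (base 651, 3.97%), position 3880 (base 524, 3.50%) and position 3455 (A99, 3.02%). Position 3383, A27 of 18S and the first pile-up after the start of 18S, was at 2.52%. Bases 27, 99, 116, 121, 159, 166, 172 and 174 are 2′-O-methylated in mammalian 18S, and each of them was among the 22 highest positions here. The later bases were not aligned to a reference numbering.

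The peaks stood on single bases. The Nm score, the count divided by the mean of both neighboring bases with 0 counts set to 1, was 796 ± 189 (SD, n = 3) at position 3939 and 2127 ± 287 at position 3964 in 4T1 WT. The scores were 514 ± 176 at A27, 667 ± 171 at U121 and 111 ± 27.4 at C174. Lower scores were seen where a neighbor also had counts, such as 7.22 ± 1.26 at U172.

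**Figure D2:**
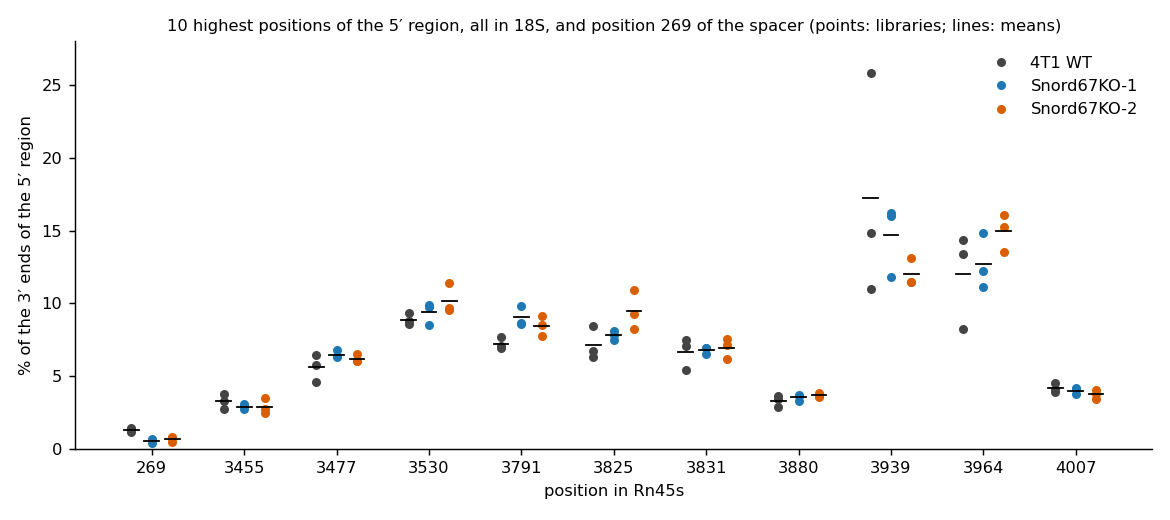
Percent of the region's 3′ ends at position 269 of the spacer and at the 10 highest positions, which all lie in 18S. Points are libraries (3 per genotype) and short lines are genotype means. 4T1 WT replicate 2 stands above all other libraries at position 3939 and below them at position 3964.

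The coordinates end on a pile-up. The last base inside, position 4007, held 17656 counts (842 to 2794 per library), and the base before it held 36. The first base outside held 45 counts. A limit 1 base earlier would thus have left out the eighth highest position.

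By genotype, the region as a whole took a similar part of Rn45s. Its share of Rn45s counts was 38.1%, 35.9% and 39.1% in 4T1 WT replicates 1 to 3, 36.9%, 37.0% and 37.4% in Snord67KO-1, and 35.7%, 37.2% and 36.7% in Snord67KO-2. All ranges overlapped. The mean of the 6 knockout libraries was 36.8% ± 0.586 (SD) against 37.7% ± 1.61 (n = 3), a difference of -0.916 percentage points (two-sided exact permutation p = 0.262, adjusted over 4 comparisons 0.400). The 10 highest positions took 75.5% ± 3.93 of the region in 4T1 WT against 77.3% ± 0.746 in Snord67KO-1 and 78.6% ± 1.64 in Snord67KO-2 (both clones against 4T1 WT, exact permutation p = 0.238, adjusted 0.400). In edgeR's quasi-likelihood test of the region's total among 6531 genes, the log2 fold change was -0.16 (SE 0.39, adjusted p = 0.819) in Snord67KO-1 and 0.49 (SE 0.39, adjusted p = 0.542) in Snord67KO-2. These values describe 18S almost alone, given its share of the counts.

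The external spacer held fewer counts in every knockout library than in any 4T1 WT library. There were 1825, 955 and 1454 spacer counts in 4T1 WT against 698, 429 and 829 in Snord67KO-1, and 173, 467 and 542 in Snord67KO-2. As a share of Rn45s this was 1.13%, 0.773% and 0.869% in 4T1 WT compared with 0.469%, 0.359% and 0.494% in Snord67KO-1, and 0.251%, 0.431% and 0.486% in Snord67KO-2. Every knockout library was below every 4T1 WT library, and the clones overlapped with each other. The amount of precursor was not measured, because oxidized libraries keep mainly 2′-O-methylated ends and the control samples were not analysed. In bulk libraries a difference in some of the cells and a difference in all of them cannot be told apart either. The 95% Wilson intervals, which cover counting error only, ran from 0.726% to 0.824% in the lowest 4T1 WT library and from 0.462% to 0.529% in the highest knockout library.

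The means were 0.925% ± 0.186 (SD, n = 3) in 4T1 WT against 0.441% ± 0.0721 in Snord67KO-1 and 0.389% ± 0.123 in Snord67KO-2, so 4T1 WT was 2.10 and 2.38 times as high. The difference between both clones and 4T1 WT was -0.510 percentage points (exact permutation p = 0.0238, the smallest this design allows, adjusted 0.0952). For each clone alone p was 0.1, again the smallest possible with 3 against 3 (adjusted 0.133). The clones differed by -0.0518 points (exact permutation p = 0.600). None of the 4 comparisons passed 0.05 after adjustment, and with these sample numbers none could have. The permuted units were libraries, so these p-values measure the spread between libraries and not between clones.

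**Figure D3:**
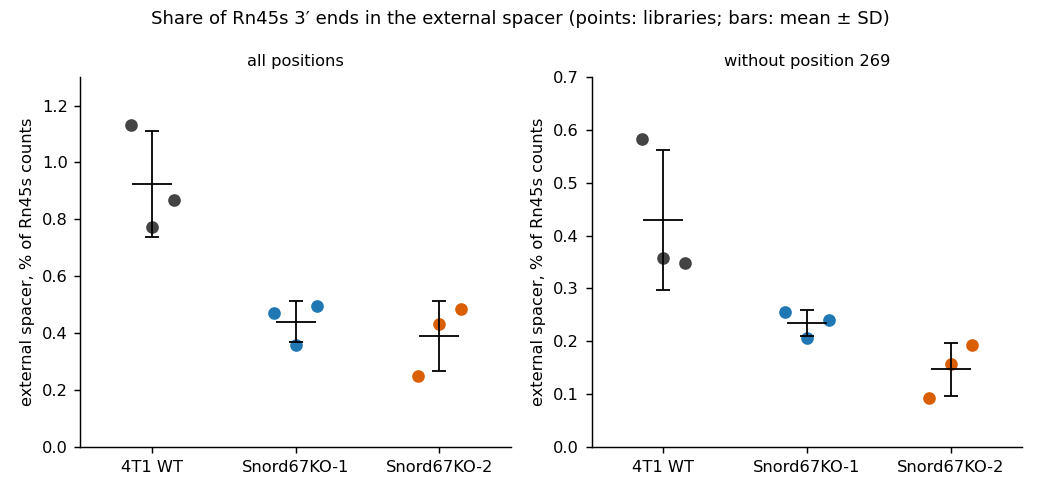
External spacer counts as a percent of Rn45s counts for each library (points), with the mean ± SD of 3 libraries per genotype, for all positions (left) and without position 269 (right). In both panels the 6 knockout libraries lie below the 3 4T1 WT libraries.

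The same held on the scale of the library. The spacer took 2476, 1495 and 2326 CPM in 4T1 WT against 1036, 872 and 1207 in Snord67KO-1, and 814, 1267 and 1280 in Snord67KO-2, again without overlap between 4T1 WT and the clones. All 6 knockout libraries lay below all 3 4T1 WT libraries in 3.81% of the 6532 features tested. In edgeR's test the log2 fold change was -1.21 (SE 0.28, adjusted p = 0.00731) in Snord67KO-1, -0.76 (SE 0.28, adjusted p = 0.151) in Snord67KO-2, and -0.99 (SE 0.23, adjusted p = 0.0138) for the average of both. At the same threshold 8.1%, 0.781% and 5.74% of all features were lower in these comparisons. The clones were not shown to differ (log2 difference 0.44, SE 0.28, adjusted p = 0.437).

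The average call rested on 4T1 WT libraries. Without 4T1 WT replicate 1 its adjusted p was 0.0568, and without replicate 3 it was 0.0510, while without replicate 2 the Snord67KO-2 difference passed as well (log2 -1.07, adjusted p = 0.00233). It also passed without marked positions, at an adjusted p of 0.0245.

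The 18S total, by contrast, had log2 fold changes of -0.12 (SE 0.46, adjusted p = 0.894) in Snord67KO-1 and 0.57 (SE 0.46, adjusted p = 0.548) in Snord67KO-2. The 18S segment took 36.8% ± 1.54 of Rn45s in 4T1 WT and 36.4% ± 0.516 in the 6 knockout libraries (exact permutation p = 0.524). The 628 bases of Rn45s after 18S, with 773 counts, were lower as well in Snord67KO-1 and in the average. Their share of Rn45s was 0.0995% ± 0.0328 in 4T1 WT compared with 0.0438% ± 0.00483 in Snord67KO-1 and 0.0412% ± 0.0156 in Snord67KO-2, and the edgeR log2 fold change was -1.28 (SE 0.28, adjusted p = 0.00487) in Snord67KO-1, -0.74 (SE 0.29, adjusted p = 0.172) in Snord67KO-2, which did not pass, and -1.01 (SE 0.23, adjusted p = 0.0124) for the average.

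A single base, position 269, held more counts than the rest of the spacer together. It is a T at 39843265, and it had 3943 of the 7372 counts, against 56 at the next highest spacer position. Its counts were 892, 515 and 874 in 4T1 WT against 319, 182 and 426 in Snord67KO-1, and 109, 298 and 328 in Snord67KO-2. Both neighboring bases together held 14 counts. The Nm score was 548 ± 311 (SD, n = 3) in 4T1 WT against 262 ± 71.2 in Snord67KO-1 and 245 ± 119 in Snord67KO-2. These values lay in the range of the pile-ups of 18S. With so few neighboring counts, the score depends largely on the minimum given to neighbors without counts. It then rises with the raw count, and so with the depth of the library. Snord67KO-2 libraries held 212463 to 423278 counts, against 625093 to 737219 in 4T1 WT. The score therefore cannot compare the genotypes at this base. The mispriming mark is absent at position 269, and 0 of the next 6 bases are those that most often follow marked positions.

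Position 269 was the only spacer position that reached the minimum for testing, 10 counts in each of at least 3 libraries. Its log2 fold change for both clones was -0.68 (SE 0.33, edgeR adjusted p = 0.512) by count and -1.15 (SE 0.25, unadjusted p = 0.000996, adjusted 0.267) relative to the rest of Rn45s. Neither passed the threshold. As a share of the spacer it was 54.3% ± 5.63 in 4T1 WT compared with 46.5% ± 4.54 in Snord67KO-1 and 62.4% ± 1.72 in Snord67KO-2. The clones lay on opposite sides of 4T1 WT, and Snord67KO-2 was above all libraries of the other genotypes (against Snord67KO-1, exact permutation p = 0.1, adjusted 0.2).

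The lower level of the spacer was also present without that base. Without position 269 the spacer took 0.430% ± 0.132 of Rn45s in 4T1 WT against 0.234% ± 0.0249 in Snord67KO-1 and 0.147% ± 0.0503 in Snord67KO-2, and all 3 genotypes were separate. The edgeR log2 fold change was -0.98 (adjusted p = 0.0160) in Snord67KO-1, -1.03 (adjusted p = 0.0449) in Snord67KO-2 and -1.01 (adjusted p = 0.00894) for both. Scaled to the smallest Rn45s total of 68921 counts, the number of different spacer positions with a count was lower in every knockout library. At an equal Rn45s total this number falls with the spacer's share, so it adds no separate evidence. It was 233 ± 74.6 in 4T1 WT against 146 ± 14.5 in Snord67KO-1 and 94.2 ± 30.8 in Snord67KO-2.

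Apart from position 269, the spacer had no pile-up near the level of 18S. It averaged 1.02 counts per base over the 9 libraries together, against 663 in the 18S segment. There were 10 spacer positions with at least 20 counts in all. Position 764, the second highest, held 7, 38 and 2 counts in 4T1 WT and 3, 6 and 0 in Snord67KO-1, with 0 in all of Snord67KO-2. The position carries the mispriming mark, and 5 of its next 6 bases are those commonest after marked positions. Position 404 held 5, 34 and 2 counts in 4T1 WT and 5, 1 and 1 in Snord67KO-1, again with 0 in Snord67KO-2. Both therefore rested on 4T1 WT replicate 2. In Snord67KO-2 a count of 0 allows up to 7.09 to 14.1 CPM, counting error only.

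A small group of 3′ ends lay at the start of the transcript. Positions 26, 29 and 34 held 28, 36 and 38 counts. The first 100 bases together took 4.16% ± 2.01 of the spacer in 4T1 WT compared with 5.26% ± 1.45 in Snord67KO-1 and 3.06% ± 0.390 in Snord67KO-2. The clones did not overlap, but the exact permutation p of 0.1 (adjusted 0.400) is the smallest possible.

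The early cleavage of the mouse spacer is placed near base 650 in textbooks. Without alignment to a reference precursor, whose numbering may differ, that base was taken as position 650 here. The 21 bases around it held 55 counts over the 9 libraries, and 6.06% of the 3336 windows of 21 bases in the spacer held as many or more, with a median of 15. The highest base among them, position 654, had 9 counts. Those bases took 0.896% ± 0.494 of the spacer in 4T1 WT against 0.555% ± 0.499 in Snord67KO-1 and 1.06% ± 0.683 in Snord67KO-2 (both clones against 4T1 WT, exact permutation p = 0.881). No pile-up like that of position 269 was detectable there at this depth. Oxidation mainly removes 3′ ends without a 2′-O-methyl group, so these counts cannot show whether the cleavage took place. The highest positions of the later windows, positions 1068, 1962, 2226 and 2508, held 14, 14, 25 and 11 counts.

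The decrease ran along the spacer. In 8 windows of 500 bases (507 in the last), fitted among 6538 features, the 6 windows that hold spacer alone had negative log2 fold changes in each clone. The first window (positions 1 to 500, which holds position 269) was at 1466 ± 336 CPM in 4T1 WT against 662 ± 128 in Snord67KO-1 and 832 ± 182 in Snord67KO-2. The second (positions 501 to 1000) was at 191 ± 27.8, 87.6 ± 12.5 and 76.4 ± 10.8 CPM. In these 2 windows every knockout library was below every 4T1 WT library, as in 3.81% of gene totals, and in the next 4 the ranges overlapped.

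Snord67KO-1 was lower past the threshold in the first and second windows (log2 -1.34 and -1.28, edgeR adjusted p = 0.00357 and 0.00140). Snord67KO-2 was lower in the second (-1.14, adjusted p = 0.0191) and not in the first (-0.67, adjusted p = 0.193). The average of both was lower in the first (-1.01, adjusted p = 0.0112) and the second (-1.21, adjusted p = 0.00132). Beside these counts of 2, 1 and 2 windows, 8.08%, 0.78% and 5.69% of all features were lower. The third to sixth windows, with 299 to 390 counts each, had average log2 fold changes of -0.77 to -0.92 and adjusted p-values of 0.0553 to 0.0878. Without marked positions 5, 2 and 6 windows passed, and without 4T1 WT replicate 2 all 6 spacer windows passed in each of the 3 comparisons. The Snord67KO-2 window was lost without 4T1 WT replicate 1 and without any 1 of the Snord67KO-2 libraries. The windows that hold 18S bases had average log2 fold changes of 0.19 (seventh) and 0.18 (eighth).

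**Figure D4:**
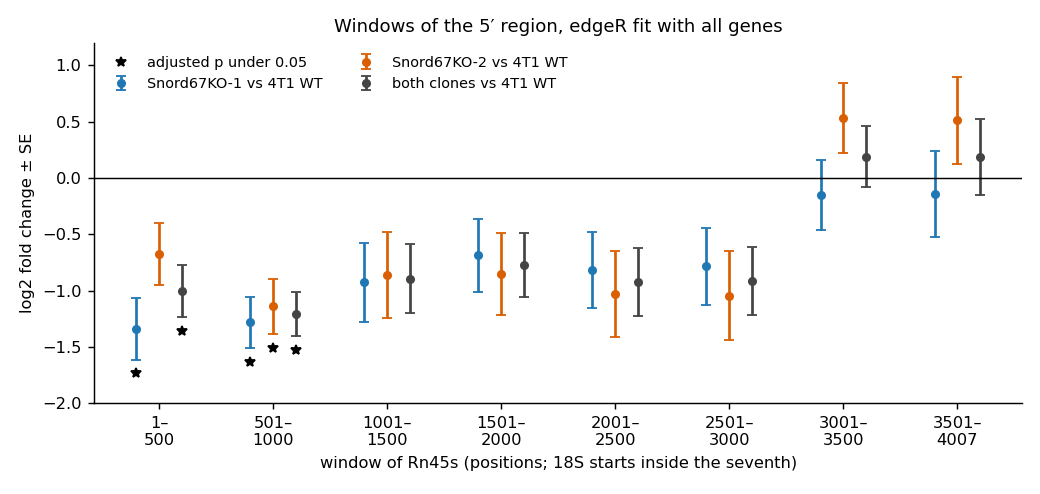
Log2 fold change ± SE of 8 windows of the 5′ region, from edgeR's fit with all genes, for each clone and their average against 4T1 WT. Stars mark adjusted p under 0.05. The 6 windows of spacer alone lie below 0, and the last 2, which hold 18S bases, lie near 0 or above it in Snord67KO-2.

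At 100-base resolution, 6 of 33 spacer bins had all knockout libraries below all 4T1 WT libraries, beside the 3.81% of gene totals that separated in this way. They were the bins starting at positions 201, 401, 601, 701, 2101 and 3001. Bins held 13 to 4173 counts with a median of 74, so most held few counts per library.

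**Figure D5:**
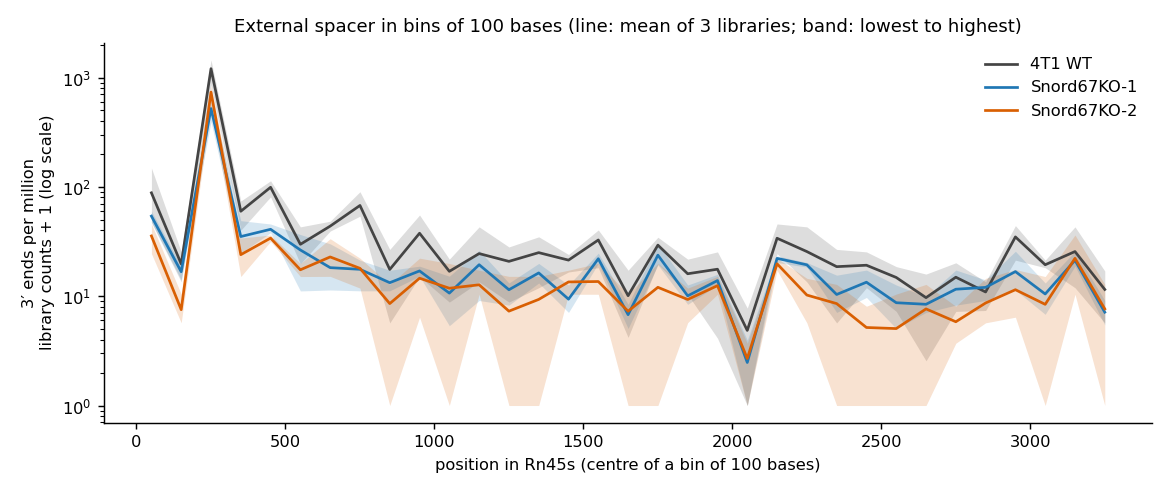
CPM of 3′ ends plus 1 (log scale) in bins of 100 bases of the external spacer. Lines are means of 3 libraries per genotype, bands run from the lowest to the highest library, and the peak at the third bin holds position 269.

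Single positions of the region did not pass the test. Of 111 positions with enough counts, 110 in 18S, edgeR called 0 in either clone or their average, by count or relative to the rest of Rn45s. Among the 2092 positions of all genes, 0.0478% were called higher by count in each of the 3 comparisons and 0% lower, and 0% of 2051 positions were called relative to the rest of their gene. At an unadjusted p under 0.05 there were 3, 14 and 7 of the region's positions by count in Snord67KO-1, Snord67KO-2 and the average, beside 3.44%, 12.3% and 9.42% of all positions. Relative to the rest of the gene there were 7, 11 and 11, beside 5.17%, 17.1% and 17.4% of all positions. DESeq2 called 0, 4 and 1 by count, and those were higher. It gave an adjusted p for 2091, 550 and 509 positions of all genes in these comparisons, and called 0.574%, 3.09% and 2.16% of them higher.

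Those with the smallest unadjusted p for the average were led by position 3825 (log2 0.77, SE 0.21, adjusted p = 0.480) and position 3791 (0.74, SE 0.21, adjusted p = 0.480) among higher ones, both pile-ups of 18S. Position 3879, beside the pile-up at 3880, was the next (0.98, adjusted p = 0.491). The lower ones were position 269, position 3506 (-1.29, adjusted p = 0.523) and position 3771 (-0.91, adjusted p = 0.524). Relative to the rest of Rn45s, position 269 was followed by position 3750 (-0.99, adjusted p = 0.267) and position 3771 (-1.44, adjusted p = 0.267), low positions with 114 and 63 counts. On the higher side were positions 3791 (0.25), 3953 (0.70) and 3825 (0.24).

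The bases at which reads ended differed between the parts, largely through the highest position of each part. In the spacer, T was 22.6% of the known sequence and 68.0% ± 5.70 of the 3′ ends (SD, n = 9), which fell to 29.7% ± 3.54 without position 269. In the 18S segment A was 22.4% of the sequence and 36.0% ± 4.34 of the 3′ ends, which fell to 24.9% ± 1.72 without its highest position.

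Positions marked mispriming had little weight in the region. There were 25, all in the spacer, with 109 counts. They took 0.0507% ± 0.0442 of the region in 4T1 WT compared with 0.0159% ± 0.0110 in Snord67KO-1 and 0.00762% ± 0.00244 in Snord67KO-2 (both clones against 4T1 WT, exact permutation p = 0.0714, adjusted 0.2). The highest value, 0.101%, was in 4T1 WT replicate 2.

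Genes that make and process the precursor were counted in the same libraries, by their own 3′ ends. These are ends kept after oxidation, few for many genes, and they do not measure the level of the mRNA. Lower and higher refer to these counts alone. Of 20 genes of RNA polymerase I and its initiation factors 12 were tested. In Snord67KO-1 and in the average 2 were lower, and 0 were called in Snord67KO-2, beside 8.1%, 5.74% and 0.781% of all features. They were Taf1d, a subunit of the initiation factor SL1 (average log2 -0.81, SE 0.23, edgeR adjusted p = 0.0298), and Polr2k, a small subunit shared by the polymerases (-1.11, SE 0.29, adjusted p = 0.0239). Taf1c and Polr1d, the most counted of the list, had average values of -0.01 and 0.34 and did not pass. The median of the list was -0.22 in the average, and that of all features was -0.04.

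Of 48 names of the small subunit processome and U3 proteins, 43 were in the table and 36 were tested. In Snord67KO-1 9 were lower and 1 higher, in the average 9 and 1, and in Snord67KO-2 0 either way. Of all features 8.1%, 5.74% and 0.781% were called lower in these comparisons, and 10.6%, 6.03% and 2.24% higher. The median log2 fold change was -0.69 in Snord67KO-1, -0.33 in Snord67KO-2 and -0.52 in the average, against -0.03, -0.03 and -0.04 over all features. Fbl, the methyltransferase of box C/D snoRNPs, was at 87.9 ± 57.6 CPM in 4T1 WT against 35.4 ± 7.57 in Snord67KO-1 and 37.4 ± 8.94 in Snord67KO-2 (average log2 -1.15, SE 0.28, adjusted p = 0.0156). Nop58, a core protein of those particles, was at 158 ± 42.5, 84.6 ± 17.8 and 117 ± 4.66 CPM (average -0.61, adjusted p = 0.0493).

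Also lower in the average were Nat10, the acetyltransferase of 18S (-1.77, adjusted p = 0.0101), and the processome or small subunit assembly proteins Heatr1, Ltv1, Ddx10, Pdcd11, Krr1 and Utp15 (-0.86 to -1.25). Nop56 and Ncl passed in Snord67KO-1 (-1.21 and -0.82) and not in Snord67KO-2 or the average. Wdr36, a processome protein, was higher (average 0.72, SE 0.19, adjusted p = 0.0249). Npm1, the most counted gene of the list, did not pass (-0.03). The 4T1 WT libraries differed widely in Nat10 (92.3 ± 93.9 CPM), Ltv1 (73.0 ± 71.0), Pdcd11 (62.0 ± 54.9) and Fbl. Without 4T1 WT replicate 2, 35 genes of the list were tested, and 8 were lower and 1 higher in Snord67KO-1. In the average 3 were then lower (Heatr1, Krr1 and Ddx10) and 0 higher, and 0 were called in Snord67KO-2, while 7.57%, 3.29% and 0.656% of all features were lower in Snord67KO-1, the average and Snord67KO-2. The median of the list without that library was -0.65, -0.52 and -0.33.

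Of 22 names of nucleases and cofactors of spacer decay, 20 were in the table and 13 were tested. In Snord67KO-1 2 were lower, Las1l (log2 -1.76, SE 0.45, edgeR adjusted p = 0.0134) and its partner Nol9 (-1.05, SE 0.35, adjusted p = 0.0453), which act together in the processing of another spacer of the precursor. In Snord67KO-2 and in the average 0 passed. The shares of all features called lower were 8.1% in Snord67KO-1, 0.781% in Snord67KO-2 and 5.74% in the average. Xrn2, the exonuclease that degrades excised spacer, had an average of -0.36 (SE 0.25, adjusted p = 0.372), and Papd5, a noncanonical poly(A) polymerase, had -0.24 (adjusted p = 0.451). Without 4T1 WT replicate 2, Las1l alone remained of the list in Snord67KO-1. The part of these genes in the spacer counts was not tested.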

How the data were processed

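RibOxi-seq counts of 9 oxidized 4T1 libraries were used. The 9 control samples were not analysed here. The authors trimmed reads with cutadapt, merged pairs with pear, aligned them (STAR and mm10 are named in the submitters' processing notes) or mapped them to U6 and rRNA sequences, and deposited raw counts of read 3′ ends for each base. The paper names another build, but the coordinates fit GRCm38. Handling of reads with several matches, duplicate removal and the meaning of the mispriming column are not given in the sources used here. How reads of other rRNA gene copies were placed is thus unknown, and PCR copies may be counted.

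Rn45s was split at the lower limit of the annotated rRNA (GENCODE M21, GRCm38), where the plus-strand sequence of 18S begins. This choice was made after the data were examined. Sequence was taken from annotated transcripts, which lack 27 spacer bases. Mean shares were compared by exact permutation of the libraries, two-sided, with Benjamini-Hochberg adjustment over 4 comparisons (each clone and both against 4T1 WT, and the clones with each other). Totals and windows were fitted among all genes, and positions that reached 10 counts in 3 or more libraries among all such positions of the genome, with edgeR's quasi-likelihood test, TMM normalization and all 9 libraries. The fit relative to the rest of the gene used the log of its other counts plus 1 as offset, for genes with at least 50 such counts. The threshold was an adjusted p of 0.05. Libraries were the units in every test, so no p-value measures the spread between clones. The gene filter was edgeR's filterByExpr.

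The positions named were the 10 highest by mean share, the highest of each of 8 windows, that nearest base 650 within 10 bases, that of the last 20 bases, and up to 3 higher and 3 lower positions with the smallest p. Genes named were those past the threshold and the 2 most counted of each list. The 10 highest spacer positions and A27 of 18S were added. Positions were called linker-like where 4 or more of their next 6 bases matched the commonest bases after marked positions. The region and the lists were chosen with earlier results of these data known. Replicates are described as biologic, and their numbers were not used to pair the libraries in the fits reported.

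Fits were tested on simulated data. Alternatives covered normalization, filters, marked and linker-like positions, window number, a block by replicate number, and leaving out single libraries. Python 3.11.15 was used with matplotlib 3.10.9, scipy 1.17.1, numpy 2.4.6 and pandas 2.3.3. R 4.3.3 was used with DESeq2 1.42.0, edgeR 4.0.16 and limma 3.58.1.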

Additional observations from a re-analysis of the deposited data

Results flagged for a closer look

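In 3 of 48 measures, 1 of the 6 knockout libraries stood far from the other 5 by its gap relative to the range, and chance alone flags about 1 group in 20. Position 404 was at 7.42 CPM in Snord67KO-1 replicate 1, against 2.03 CPM in the next library. Position 764 was at 12.2 CPM in Snord67KO-1 replicate 2, against 4.45 CPM in the next. The third spacer window was at 23.5 CPM in Snord67KO-2 replicate 1, the library with the fewest counts, against 52.9 CPM in the next lowest. These values rest on 5, 6 and 5 counts.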

How the results depend on the processing

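Against 4T1 WT, the external spacer had a negative difference for Snord67KO-1 and for the average of both clones under every alternative run, as a share and as a total. Its total in Snord67KO-2, which did not pass in the fit reported, passed without a filter on low counts (log2 -0.84, edgeR adjusted p = 0.0436), without marked positions (-0.89, 0.0245) and without position 269 (-1.03, 0.0449). Leaving out single libraries gave -1.07 to -0.54 in Snord67KO-2 and -1.31 to -0.77 in the average. The average lost its call without 4T1 WT replicate 1 or 3, and Snord67KO-2 passed without replicate 2.

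The difference between the clones had no stable sign. Without position 269 it was -0.048 on the log2 scale, and the share differed by 0.0082 points as a percent of the library, 0.022 as a percent of the library without Rn45s, and -0.100 to 0.0172 with single libraries left out. The spacer's share at position 269 in the average was -0.505 points without marked positions and -2.54 to 3.07 with single libraries left out. As a percent of the library, the whole region turned to 0.173 points in Snord67KO-1, 2.15 in Snord67KO-2, 1.16 in the average and 1.98 between the clones. Single libraries left out gave -1.52 to 0.0518 points for its share in Snord67KO-1, -0.121 to 3.81 for that of the 10 highest positions, and log2 totals of -0.46 to 0.16 in Snord67KO-1 and -0.11 to 0.49 in the average. Linker-like in place of marked positions gave 1.49, 0.926 and 1.21 points in Snord67KO-1, Snord67KO-2 and the average. Position 3791 is among the linker-like positions, and its part in this change of sign was not tested. Causes of the other changes of sign were not tested either.

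Windows called numbered 5, 2 and 6 without marked positions, and 7 in the average with 16 windows. With single libraries left out they numbered 2 to 6, 0 to 6 and 2 to 6, and 0 to 2 between the clones. Positions called by count numbered 4 in Snord67KO-2 and 1 in the average with DESeq2, and 2 and 2 without a filter, the latter lower. Libraries with the same replicate number had correlations of deviations of -0.149 to 0.337. The highest, 0.337 and 0.286, were between 4T1 WT and Snord67KO-1 in replicates 2 and 3, against -0.073 in replicate 1. Whether these libraries shared a batch was not tested. A replicate block gave 4 windows in Snord67KO-1 and 5 in the average, a spacer total of -0.94 in the average (adjusted p = 0.0109), and a spacer share p of 0.0741, the smallest possible. Direction and call were kept by 339 values with a library left out, where 10 reversed, 8 moved, 2 lost a call and 1 gained one. They were kept by 196 under other settings, where 11 reversed, 10 moved and 3 gained a call. These numbers do not measure robustness, since share tests could not pass the threshold in this design and thus had no call to change. The depth of Snord67KO-2, with 173 to 542 spacer counts per library, limits single spacer positions.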
